A study of Mus musculus with 145 samples.

Results

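Histone lysine methyltransferases and demethylases set and remove the methyl groups on histone tails that mark active and silent chromatin. The 35 genes described here were taken from a fixed list of such enzymes and of the subunits of Polycomb repressive complex 2 (PRC2), grouped into 8 sets by the histone residue they act on, out of 24615 genes in the single-cell table. They comprised 6 writers of H3K4 methylation (*Kmt2a*, *Kmt2b*, *Kmt2c*, *Kmt2d*, *Setd1a* and *Setd1b*), 7 PRC2 subunits and H3K27 writers (*Ezh1*, *Ezh2*, *Eed*, *Suz12*, *Jarid2*, *Mtf2* and *Phf19*), 5 H3K9 writers (*Ehmt1*, *Ehmt2*, *Setdb1*, *Suv39h1* and *Suv39h2*), 3 writers of H3K36 or H3K79 (*Setd2*, *Nsd1* and *Dot1l*), 4 H3K4 erasers (*Kdm1a*, *Kdm1b*, *Kdm5a* and *Kdm5b*), 2 H3K36 erasers (*Kdm2a* and *Kdm2b*), 6 H3K9 erasers (*Kdm3a*, *Kdm3b*, *Kdm4a*, *Kdm4b*, *Kdm4c* and *Phf8*) and 2 H3K27 erasers (*Kdm6a* and *Kdm6b*). No expression value entered the rule that lists them, though the list was set with earlier results of these data known. All 35 passed the filter on low counts in both assays.

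Mouse spermatogonial stem cells (SSCs), the germline stem cells of the testis, convert in culture into germline-derived pluripotent stem cells (gPSCs). The SSCs came from male pups in the first week after birth, from a cross of transgenic C57BL/6 females (Oct4-EGFP, a reporter driven by the Oct4 promoter, or EGFP) with males given as DBA in the labels and DBA/2 in the methods, and were grown on growth-arrested mouse embryonic fibroblasts. Modified STRT-seq, a plate method that counts each cDNA molecule once by its unique molecular identifier (UMI), gave 46 libraries of the original condition without added chemicals, from day 0 to day 27, and 1 library each of the line gPSC-1 at passage 1, of gPSC-1 at passage 15 and of mouse embryonic stem cells (mESCs), labelled with the same cross. The lines were kept in N2B27 medium with 2iL (CHIR99021, PD0325901 and ESGRO) and the cells of the original condition in SSC medium, so line and medium cannot be told apart. The RNA arm of scTrio-seq2 gave 8 samples of cells under 5C, a mixture of the PRMT3 inhibitor SGC707, vitamin C, EGCG, daphnetin and TUDCA, and 5 samples under the solvent DMSO. Cells were picked by mouth pipette from SSC-like and PSC-like colonies. Whether libraries of 1 day came from different cultures is not given, so the p-values below measure the spread between libraries, which may be technical in part.

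Classes are those of the deposited annotation, which the authors derived from the same transcriptomes, so differences between classes are descriptive and provide no separate check of the annotation. SSC1-4 held 2265 cells in all, and RPG1 to RPG4, the classes of the successful branch, held 333, 47, 261 and 33. A library entered a class with at least 5 such cells, which left 36 libraries for SSC1-4 and 7, 3, 8 and 2 for RPG1 to RPG4, the 2 of RPG4 with 8 and 13 cells. The branches that did not reach pluripotency were labelled fibroblast (5 libraries), early-pluripotent (3), meiotic (6) and neural (12). Marker genes were summed as a description, since many of them served to name the classes. SSC markers (*Zbtb16*, *Dazl*, *Dmrt1*, *Ddx4*, *Gfra1*) had a median of 1619 CPM (counts scaled to library size) in SSC1-4 against 167 in RPG3, and pluripotency markers (*Pou5f1*, *Nanog*, *Sox2*, *Utf1*, *Dppa3*) 176 against 1701. The same pluripotency sum had a median of 183 CPM in the early-pluripotent class, inside the SSC1-4 range, and the fibroblast class kept 1370 CPM of SSC markers beside 686 CPM of 8 fibroblast markers, against 48.2 CPM in SSC1-4. The sum of meiotic markers (*Spo11*, *Dpep3*, *Sycp3*) in the class so labelled overlapped that of SSC1-4, at a median of 104 against 68.6 CPM. The neural name is that of the annotation, and no marker value is given for it here. Libraries of the original condition held 15975410 to 34609591 UMIs, 5C samples 5880774 to 10723044 and DMSO samples 3888311 to 8059618. All RPG2 and early-pluripotent libraries were of batch B2, and all RPG4 and fibroblast libraries of batch B1.

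A writer adds methyl groups through a SET domain, or in *Dot1l* through a different fold, and an eraser removes them by oxidation, the flavin enzymes *Kdm1a* and *Kdm1b* with FAD and the Jumonji enzymes with iron and oxoglutarate. H3K4 methylation is found at active promoters and enhancers, H3K36 methylation over transcribed gene bodies, H3K9 methylation in heterochromatin and H3K27 trimethylation over genes silenced by Polycomb. In the germline, *Kdm1b* is known for removing H3K4 methylation in growing oocytes ahead of DNA methylation, and PRC2 restrains developmental genes in both germ cells and embryonic stem cells.

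Counts were summed per library and class, scaled by TMM and compared with edgeR's quasi-likelihood test, with a Benjamini-Hochberg adjusted p below 0.05 over all genes as the call. Against SSC1-4, RPG3 had 17 of the 35 genes higher and 9 lower, while 56.8% of all genes tested were called, 25.2% higher and 31.5% lower. The median log2 fold change of the 35 genes was 0.41, against -0.25 over all genes. RPG2 had 11 higher and 8 lower, beside 36% of all genes called (17.5% and 18.5%), with medians of 0.13 and -0.52. RPG4 had 6 higher and 8 lower, beside 27.7% (12.6% and 15.1%), with medians of -0.28 and -0.54. With DESeq2 size factors in place of TMM the split in RPG4 was 10 higher and 8 lower. Leaving out either of its 2 libraries gave 7 to 10 calls, with 7 without day 20 replicate 1, and 3 of the 14 stayed called both times. RPG1 had 0 called in either direction by edgeR, beside 4.61% of all genes (2.58% higher and 2.03% lower), with 7 at an unadjusted p below 0.05 and 2 called by DESeq2. All of these comparisons share the same SSC1-4 libraries. In RPG3 the ranges over libraries did not overlap with SSC1-4 for 6 of the 35 genes: *Ezh2*, *Jarid2*, *Kdm4b* and *Kdm4c* lay above and *Suv39h1* and *Kdm5a* below. The share of all genes with ranges apart was not computed, so this count cannot be set against it. In the plot of log2 fold changes by class, the columns of RPG2, RPG3 and RPG4 carry most of the dots for a call.

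**Figure D1:**
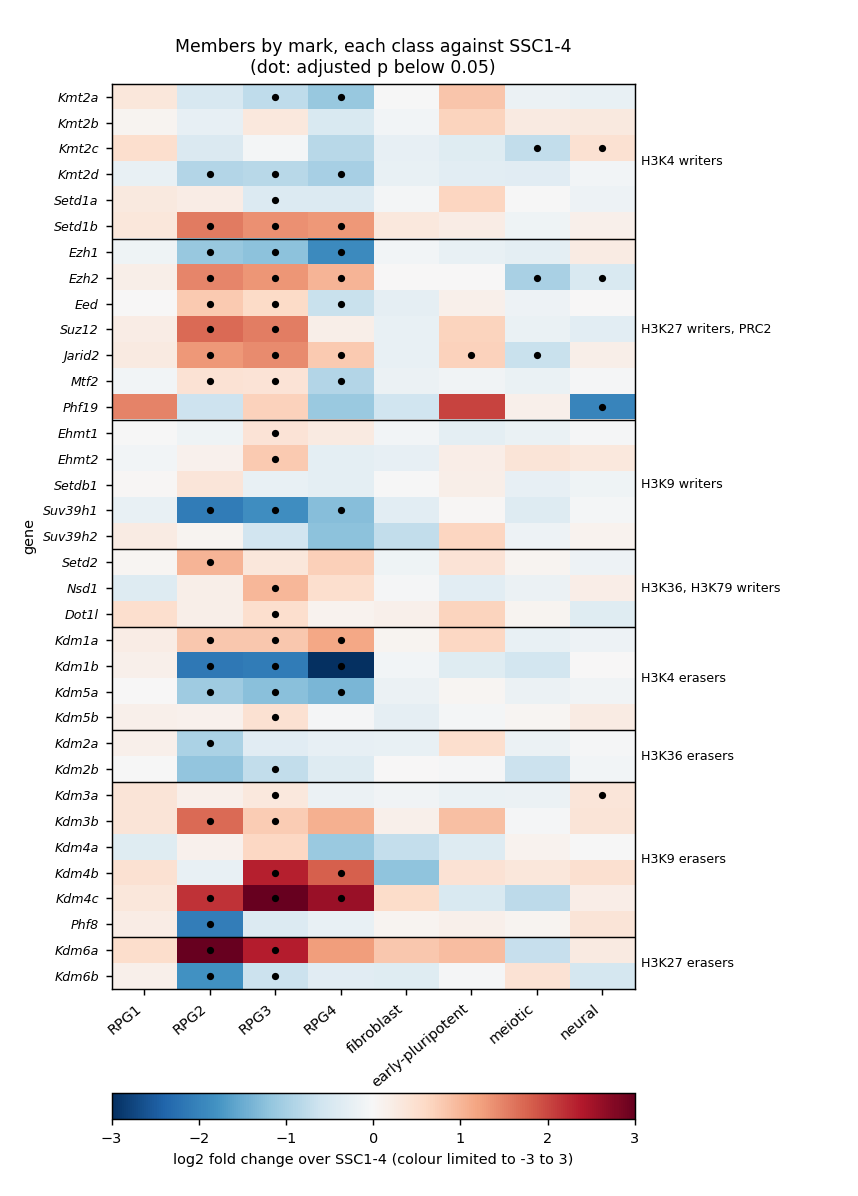
Log2 fold change against SSC1-4 of the 35 genes (rows, grouped by histone mark) in the 8 other classes (columns), from edgeR on sums per library, in red for higher and blue for lower. Dots show adjusted p below 0.05. RPG1 has 0 dots, RPG2 19, RPG3 26 and RPG4 14, and each of the 4 classes of the other branches has at most 4.

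PRC2, the complex that writes H3K27 methylation, moved in opposite directions at its 2 alternative catalytic subunits. *Ezh2* (chromosome 6 of GRCm38, 47530139 to 47595341), the catalytic subunit of dividing cells, ranged from 47.3 to 207 CPM with a median of 126 in SSC1-4, and from 245 to 416 with a median of 316 in RPG3. Every RPG3 library lay above every SSC1-4 library, and the log2 fold change was 1.33 ± 0.15 (SE; edgeR adjusted p = 3.02e-12). *Ezh1* (chromosome 11, 101191115 to 101226463), the catalytic subunit more typical of resting cells, ranged from 10.8 to 102 CPM with a median of 72.8 in SSC1-4 and from 7.01 to 47.8 with a median of 29.6 in RPG3. The ranges overlapped in 3 SSC1-4 libraries of 7 or 8 cells each, and *Ezh1* was lower by a log2 fold change of -1.23 ± 0.20 in RPG3 (adjusted p = 2.09e-07) and of -1.92 ± 0.42 in RPG4 (adjusted p = 0.0002), where the 2 libraries had 29 and 9.01 CPM. In RPG4 it was -1.28 and not called without day 20 replicate 2, the lower library, and stayed called without the other.

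*Suz12*, *Jarid2*, *Eed* and *Mtf2*, subunits without catalytic activity, were called higher in RPG2 and RPG3, as was *Ezh2*. *Suz12* (chromosome 11, 79993106 to 80034123), the scaffold of the complex, ranged from 123 to 289 CPM with a median of 175 in RPG3 and from 23 to 279 with a median of 58.3 in SSC1-4. The top of the SSC1-4 range was 1 sum of 8 cells, day 16 replicate 6, and the next library had 86.2 CPM, below every RPG3 library. The log2 fold change of *Suz12* was 1.53 ± 0.17 (adjusted p = 1.68e-12). *Jarid2* (chromosome 13, 44729474 to 44921643), which helps bring PRC2 to chromatin, ranged from 37.1 to 148 CPM in SSC1-4, with a median of 103, and from 208 to 440 in RPG3, with a median of 241. The 2 ranges lay apart, with a log2 fold change of 1.42 ± 0.11 (adjusted p = 9.03e-20). *Eed*, which reads the trimethyl mark, and *Mtf2*, a Polycomb-like subunit that binds CpG islands, were higher in RPG3 by 0.58 ± 0.08 and 0.41 ± 0.08 on the log2 scale. In RPG4 both were lower than in SSC1-4, *Eed* by -0.66 ± 0.17 (adjusted p = 0.00158) and *Mtf2* by -0.88 ± 0.17 (adjusted p = 3.37e-05), and *Suz12* was not called, while *Ezh2* (1.01 ± 0.28, adjusted p = 0.00343) and *Jarid2* (0.79 ± 0.21, adjusted p = 0.00255) were higher. The RPG4 call was kept in 1 of the 2 fits that left out 1 library for *Eed*, *Ezh2* and *Jarid2*, and in both for *Mtf2*. *Phf19*, the other Polycomb-like member of the list, was called in none of the RPG classes against SSC1-4.

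The promoters of *Ezh2* and *Suz12*, both called higher in RPG2 and RPG3, are printed with the letters of an E2F motif in capitals. E2F factors are known as regulators of the cell cycle. Each window holds 250 bases before and 50 after the start of the gene in RefSeq on GRCm38.p6, read 5′ to 3′ on the strand of the gene. The *Ezh2* window lies wholly within the gene positions given above, which are those of GENCODE and start further upstream.
*Ezh2*, chr6:47594981-47595280, minus strand: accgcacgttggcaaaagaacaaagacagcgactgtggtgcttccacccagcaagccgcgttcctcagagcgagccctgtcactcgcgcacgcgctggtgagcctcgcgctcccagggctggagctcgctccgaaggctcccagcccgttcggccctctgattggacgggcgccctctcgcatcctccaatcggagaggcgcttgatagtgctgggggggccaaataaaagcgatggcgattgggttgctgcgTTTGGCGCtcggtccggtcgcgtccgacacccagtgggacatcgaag
*Suz12*, chr11:79992856-79993155, plus strand: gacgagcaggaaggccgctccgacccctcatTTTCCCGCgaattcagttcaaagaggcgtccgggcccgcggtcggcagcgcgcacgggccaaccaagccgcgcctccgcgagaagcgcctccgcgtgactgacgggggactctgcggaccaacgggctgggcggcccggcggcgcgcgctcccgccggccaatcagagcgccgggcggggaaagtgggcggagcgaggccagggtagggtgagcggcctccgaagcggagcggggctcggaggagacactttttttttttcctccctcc

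In *Ezh2* the 8 letters TTTGGCGC began 4 bases after the start, and in *Suz12* the letters TTTCCCGC began 219 bases before it. RefSeq promoters were at hand for 27 of the 35 genes. On both strands TTTCCCGC occurred in the promoters of 2 of these 27 genes, *Suz12* and *Phf19*, and of 1.24% of 27025 genes, and TTTGGCGC in 1 of 27, *Ezh2*, and 0.585% of all genes. The E-box CACGTG occurred in 3 of 27 genes (8.09% of all genes), the 5 letters CCAAT in 12 of 27 (41.1%) and GGGCGG in 21 of 27 (38.2%). Of the 13 genes called higher in RPG3 with a promoter at hand, 1 held TTTCCCGC and 1 held TTTGGCGC. These are matches of letters and no evidence of binding.

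Cell cycle genes were also higher in RPG3. The sum of 9 cell cycle markers (*Mki67*, *Top2a*, *Mcm2*, *Mcm3*, *Mcm5*, *Pcna*, *Ccna2*, *Ccnb1* and *Cdk1*) ranged from 1463 to 2949 CPM in SSC1-4, with a median of 2133, and from 2698 to 3769 in RPG3, with a median of 3015, and 8 of the 9 were called higher in RPG3. In the 3 RPG2 libraries the sum ranged from 2598 to 3402 CPM, with a median of 2912, overlapping SSC1-4. Its part in the higher PRC2 transcripts was not tested.

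**Figure D2:**
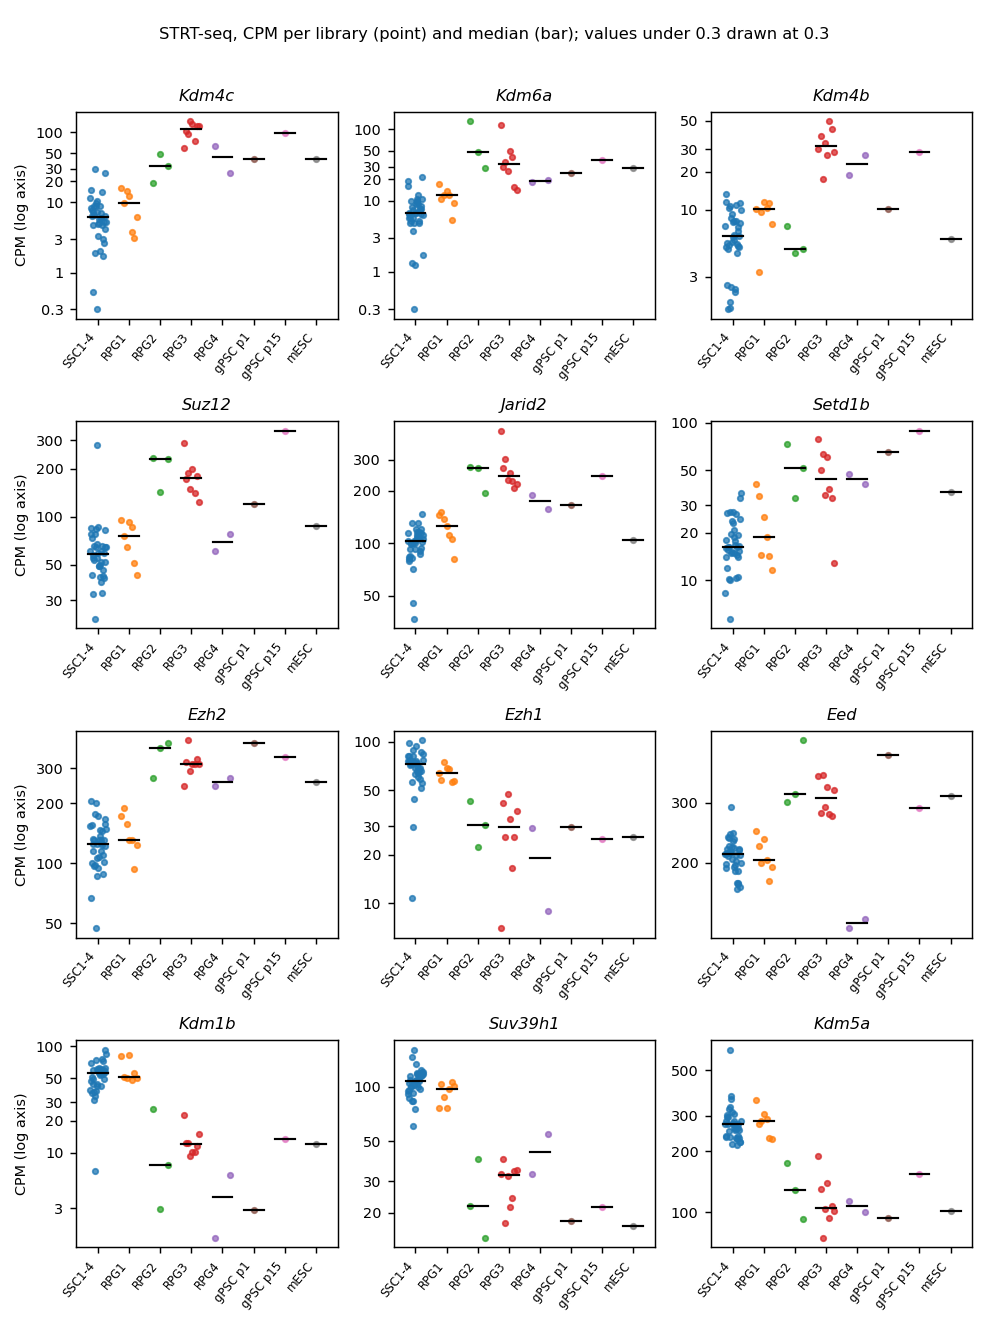
CPM (TMM scaled, log axis) of named genes in each library, in SSC1-4, RPG1 to RPG4 and the 3 lines, with 1 point per library, a bar at the median and values under 0.3 drawn at 0.3. *Kdm4c* rises from a median of 6.24 CPM in SSC1-4 to 112 in RPG3, and *Suv39h1* falls from 108 to 32.5.

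H3K27 erasers also diverged. *Kdm6a* (chromosome X, 18162575 to 18279936), a demethylase that also acts in enhancer complexes without its catalytic activity, had a median of 6.77 CPM and a highest value of 21.7 in SSC1-4, with 1 library at 0. In RPG2 the 3 libraries had 131, 48.2 and 28.3 CPM, all above SSC1-4, with a log2 fold change of 3.13 ± 0.41 (edgeR adjusted p = 7.29e-10). RPG3 libraries ranged from 14.2 to 115 CPM with a median of 32.4, overlapping SSC1-4 at the low end, with a log2 fold change of 2.35 ± 0.31 (adjusted p = 3.81e-10). The highest value in both classes was that of day 12 replicate 2, with 8 RPG2 and 7 RPG3 cells. Without this library the log2 fold change of *Kdm6a* was 2.28 in RPG2 and 1.93 in RPG3, and both remained called. When only the 2 libraries with at least 5 cells of both classes were compared, blocked by library, the call in RPG3 was lost (2.00, adjusted p = 0.0632). *Kdm6b*, the related demethylase induced by many stimuli, was lower in RPG2 (-1.81 ± 0.39) and in RPG3 (-0.64 ± 0.23, adjusted p = 0.0132).

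Of the 35 genes, the H3K9 eraser *Kdm4c* had the largest log2 fold change in RPG3. *Kdm4c* (chromosome 4, 74242497 to 74405860), which removes H3K9 and H3K36 trimethylation, had a median of 6.24 CPM and a highest value of 29.8 in SSC1-4. RPG3 libraries ranged from 59.6 to 144 CPM with a median of 112, all above SSC1-4, and the log2 fold change was 3.84 ± 0.32 (edgeR adjusted p = 1.62e-18). It was 4.04 within batch B1 and 3.56 within batch B2. In RPG2 the 3 libraries had 18.9, 48.5 and 32.6 CPM, with a log2 fold change of 2.17 ± 0.49 (adjusted p = 0.000171), and in RPG4 the 2 libraries had 62.9 and 26.2 CPM, with 2.59 ± 0.55 (adjusted p = 0.000132). Both classes overlapped the SSC1-4 range at 1 library. Without day 20 replicate 1 the RPG4 value of *Kdm4c* was 1.88 and not called.

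*Kdm4b* (chromosome 17, 56326062 to 56402870), its paralogue, was called higher in RPG3 and not in RPG2. It had a median of 6.21 CPM and a range of 1.67 to 13.3 in SSC1-4, and in RPG2 the 3 libraries had 7.49, 4.6 and 4.91 CPM, inside that range. In RPG3 it ranged from 17.5 to 49.8 CPM with a median of 31.9, above every SSC1-4 and every RPG2 library. The log2 fold change was 2.33 ± 0.30 over SSC1-4 (adjusted p = 1.14e-10) and 2.56 ± 0.70 over RPG2 (adjusted p = 0.014). The latter call was kept in 8 of the 10 fits that left out 1 library and lost within batch B2 alone (2.35, adjusted p = 0.247) and with sums per batch and day (2.4, adjusted p = 0.403). *Kdm3a* and *Kdm3b*, which remove mono- and dimethyl groups from H3K9, were higher in RPG3 by 0.33 ± 0.12 and 0.75 ± 0.24 on the log2 scale, calls kept in 6 and 7 of the 8 fits that left out 1 library. *Kdm4a*, with a median of 2.6 CPM in SSC1-4, and *Phf8* were not called in RPG3. *Phf8*, an X-linked eraser of H3K9 dimethylation, was lower in RPG2 by a log2 fold change of -2.08 ± 0.52 (adjusted p = 0.000688) and higher in RPG3 than in RPG2 by 1.66 ± 0.53 (adjusted p = 0.0444). That last call was kept in 2 of the 10 fits.

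Among the H3K9 writers, *Suv39h1* (chromosome X, 8061171 to 8074760), which trimethylates H3K9 in pericentric heterochromatin, fell in all 3 later classes. It ranged from 60.7 to 161 CPM with a median of 108 in SSC1-4 and from 17.5 to 39.8 with a median of 32.5 in RPG3, and no library of the 2 groups overlapped. The log2 fold change was -1.86 ± 0.14 in RPG3 (edgeR adjusted p = 2.72e-21), -2.09 ± 0.23 in RPG2 and -1.29 ± 0.25 in RPG4, where the call was kept in 1 of the 2 fits that left out 1 library. Its paralogue *Suv39h2* was not called (-0.56 ± 0.26 in RPG3, adjusted p = 0.0605). *Ehmt1* and *Ehmt2*, the pair that dimethylates H3K9 in euchromatin as a heterodimer, were higher in RPG3 by 0.41 ± 0.09 and 0.79 ± 0.14 on the log2 scale. *Setdb1*, which silences retroelements with *Trim28*, was not called in any RPG class against SSC1-4. Exons of *Suv39h1* overlap those of *Gm14820* by 767 bases in the annotation. Other members also overlap genes on the opposite strand, among them *Kdm3b* with *Gm26538* (3468 bases), *Kdm2b* with *Rnf34* (627) and *Mtf2* with *Tmed5* (395). The strand setting of the authors' counting is not given in the sources used here, so the reads of such overlaps cannot be told apart.

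H3K4 writers were mixed. *Setd1b* (chromosome 5, 123142193 to 123168629), a catalytic subunit of the SET1 complexes, ranged from 5.69 to 35.8 CPM with a median of 16.4 in SSC1-4 and from 12.9 to 78.5 with a median of 44 in RPG3. The ranges overlapped, and it was higher by a log2 fold change of 1.37 ± 0.21 (edgeR adjusted p = 5.04e-08), by 1.0 within batch B1 and 2.04 within batch B2. Blocked by library, over 2 libraries, the call was lost (0.76, adjusted p = 0.354). *Setd1a*, its paralogue, was lower (-0.41 ± 0.16, adjusted p = 0.024), though 3523 of its 6795 exon bases are shared with *Gm49388* on the same strand, where reads cannot be told apart, and the call was kept in 5 of the 8 fits that left out 1 library. Also lower were *Kmt2a* (-0.76 ± 0.18) and *Kmt2d* (-0.84 ± 0.14), the first a promoter and the second an enhancer writer. *Kmt2b* and *Kmt2c* were not called in RPG3.

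The H3K4 erasers moved by family member. *Kdm1b* (chromosome 13, 47043499 to 47085279) ranged from 6.78 to 93 CPM with a median of 56.1 in SSC1-4 and from 9.4 to 22.4 with a median of 12 in RPG3. The lowest SSC1-4 value came from 8 cells, day 16 replicate 1, and every other SSC1-4 library had at least 31.3 CPM, above all of RPG3. The log2 fold change was -2.09 ± 0.23 (edgeR adjusted p = 1.77e-13). It was -2.31 within batch B1 and -1.42 within batch B2. In RPG2 the 3 libraries had 26.1, 2.98 and 7.74 CPM, with a log2 fold change of -2.16 ± 0.36 (adjusted p = 7.27e-07). Without day 12 replicate 2, the library at 26.1, it was -3.31. In RPG4 the 2 libraries had 1.59 and 6.13 CPM, below every SSC1-4 library, with -3.71 ± 0.51 (adjusted p = 5.53e-09). Exons of *Kdm1b* and *Dek* overlap by 505 bases on opposite strands, and reads there cannot be assigned to either gene.

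*Kdm1a*, the flavin demethylase of the CoREST complex, moved the other way from *Kdm1b*. It had medians of 69 CPM in SSC1-4 and 111 in RPG3, with overlapping ranges and a log2 fold change of 0.80 ± 0.18 (adjusted p = 9.89e-05). Of the Jumonji pair that removes H3K4 trimethylation, *Kdm5a* ranged from 215 to 633 CPM in SSC1-4 and from 75 to 190 in RPG3, without overlap, and was lower by -1.25 ± 0.12 on the log2 scale (edgeR adjusted p = 1.41e-15). *Kdm5b* was higher by 0.45 ± 0.11 (adjusted p = 0.000205).

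Among the remaining enzymes, *Nsd1*, which dimethylates H3K36, was higher in RPG3 by a log2 fold change of 0.98 ± 0.12 (adjusted p = 4.87e-12), and *Dot1l*, the writer of H3K79 methylation, by 0.50 ± 0.19 (adjusted p = 0.0206), a call kept in 5 of the 8 fits that left out 1 library. *Setd2*, which trimethylates H3K36 during transcription, was higher in RPG2 (1.02 ± 0.25, adjusted p = 0.000566), kept in 2 of 3 such fits, and not called in RPG3. Of the H3K36 erasers, *Kdm2b*, which brings a variant Polycomb complex to CpG islands, was lower in RPG3 (-0.73 ± 0.32, adjusted p = 0.0488), a call kept in 3 of 8 such fits, and *Kdm2a* was lower in RPG2 (-0.94 ± 0.27, adjusted p = 0.00309).

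Between successive classes, 21 of the 35 genes differed between RPG1 and RPG2, 11 higher and 10 lower in RPG2, beside 27.5% of all genes (12.8% and 14.7%). Of the 7 RPG1 libraries 5 were of batch B1, while all RPG2 libraries were of batch B2, and 4 genes were called within batch B2 alone and 10 with sums per batch and day. From RPG2 to RPG3, 4 were higher (*Ehmt1*, *Nsd1*, *Kdm4b* and *Phf8*) and 0 lower, beside 5.98% of all genes (2.85% and 3.13%), and 0 were called with sums per batch and day. Leaving out single libraries gave 0 to 4 calls, with 0 without day 14 replicate 5. From RPG3 to RPG4, 0 were higher and 5 lower, beside 8.93% of all genes (3.94% and 4.99%). They were the PRC2 subunits *Eed* (log2 fold change -1.24 ± 0.19), *Suz12* (-1.36 ± 0.43) and *Mtf2* (-1.28 ± 0.19), together with *Ehmt2* (-1.07 ± 0.33) and *Kdm1b* (-1.62 ± 0.47). For *Eed*, the 2 RPG4 libraries had 129 and 137 CPM, while RPG3 ranged from 274 to 363 with a median of 310, without overlap. For *Mtf2*, RPG4 had 186 and 168 CPM and RPG3 ranged from 363 to 545, again without overlap. Only 2 RPG4 libraries, both of day 20, were at hand, and leaving out single libraries gave 2 to 5 calls, with 2 without day 20 replicate 1.

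In the other branches, against SSC1-4, the fibroblast class had 0 of 35 called by edgeR, beside 5.63% of all genes (5.23% higher and 0.399% lower), with 4 at an unadjusted p below 0.05 and 0 called by DESeq2. The early-pluripotent class had 1, beside 1.29% of all genes (0.914% higher and 0.374% lower), with 10 at an unadjusted p below 0.05. This was *Jarid2*, with 205, 145 and 135 CPM in the 3 libraries, inside or above the SSC1-4 range of 37.1 to 148, and a log2 fold change of 0.69 ± 0.18 (adjusted p = 0.0273), which was 0.48 and not called without day 12 replicate 2 (adjusted p = 0.477). The call was kept in 7 of 15 alternative fits. It was lost with batch as a covariate, in batch B2 alone, with sums per batch and day and blocked by library.

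The meiotic class had 3 genes lower and 0 higher, beside 1.86% of all genes (0.764% lower and 1.1% higher), with 7 at an unadjusted p below 0.05. *Ezh2* ranged from 46.9 to 83 CPM with a median of 65 in the 6 meiotic libraries, at the lower end of the SSC1-4 range, with a log2 fold change of -0.97 ± 0.20 (adjusted p = 0.00261). *Jarid2* was lower by -0.66 ± 0.15 and *Kmt2c*, an enhancer H3K4 monomethyltransferase, by -0.74 ± 0.21 (adjusted p = 0.0357). All 6 meiotic libraries were of day 16, and with sums per batch and day 0 of the 3 remained called. Blocked by library, over the 5 with at least 5 cells of both classes, 0 of the 3 were called either, with *Kmt2c* at -0.24 (adjusted p = 0.885), *Ezh2* at -0.82 (adjusted p = 0.366) and *Jarid2* at -0.17 (adjusted p = 0.912).

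The neural class had 2 genes higher and 2 lower, beside 10.7% of all genes (5.77% and 4.97%), with 8 at an unadjusted p below 0.05. *Ezh2* ranged from 40.1 to 214 CPM with a median of 70.4 in its 12 libraries, spanning the whole SSC1-4 range, and had a log2 fold change of -0.47 ± 0.15 (adjusted p = 0.0287). Within batch B1 alone it was -0.43 and not called (adjusted p = 0.0614), and the call was kept in 1 of the 3 fits that left out 1 library. Over 16 alternative fits it ranged from -1.22 to -0.106, and 8 of them kept the call. *Phf19* had a median of 0.483 CPM and a highest value of 4.28, against 3.47 and 13.4 in SSC1-4, with a log2 fold change of -1.97 ± 0.56 (adjusted p = 0.0128). With sums per batch and day the sign turned, to 0.78 (adjusted p = 0.76). *Kmt2c* and *Kdm3a* were higher by 0.46 ± 0.15 and 0.37 ± 0.11. The cell cycle sum had medians of 1447 CPM in the meiotic and 1340 in the neural class against 2133 in SSC1-4, and its part in the lower *Ezh2* was not tested.

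Genes of the same pathways outside the list were read from 2 further lists. Of 34 other lysine methyltransferases and demethylases tested, 10 were higher and 11 lower in RPG3 than in SSC1-4, beside 25.2% and 31.5% of all genes, and their median log2 fold change was -0.29. *Prdm14*, a PR-domain protein of primordial germ cells and naive pluripotent cells, had a median of 0 CPM and a highest value of 1.33 in SSC1-4 and ranged from 0.733 to 22.2 in RPG3, with a fitted log2 fold change of 5.43 ± 0.71. *Smyd2* and *Setdb2* were lower by -2.90 ± 0.42 and -2.28 ± 0.33. The sex-linked pair that erases H3K4 methylation split, with *Kdm5c* on the X higher by 2.04 and *Kdm5d* on the Y lower by -1.65.

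Of 48 partner subunits tested, 23 were higher and 11 lower in RPG3, beside the same 25.2% and 31.5% of all genes, with a median log2 fold change of 0.35. *Epop*, a PRC2 cofactor listed as *E130012A19Rik*, ranged from 45.5 to 329.6 CPM in RPG3 and from 0 to 22.8 in SSC1-4, without overlap, with a log2 fold change of 3.36 ± 0.31 (edgeR adjusted p = 3.4e-16). Among the chromobox readers of H3K27 trimethylation in Polycomb repressive complex 1 (PRC1), *Cbx8* was lower by -3.89 ± 0.34 and *Cbx2* by -1.18, while *Cbx7* was higher by 2.21. In all, 4 of the 15 PRC1 genes were higher and 7 lower. Of the 7 genes of the *Kdm1a* complex 5 were higher (*Rcor1*, *Rcor2*, *Rcor3*, *Hmg20b* and *Hdac1*) and 0 lower. Of 10 partners in H3K9 methylation 6 were higher, among them *Trim28* by 1.81 on the log2 scale, and 1 was lower. Of 10 subunits of the H3K4 complexes 5 were higher and 1 lower, and of 6 further PRC2 subunits 3 were higher and 2 lower.

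In the scTrio-seq2 cells, *Dazl*, an RNA-binding protein of germ cells, at 400 CPM divided SSC-like cells (Dazl-high) from cells that had lost it (Dazl-low). Under 5C, 566 cells were Dazl-high and 158 Dazl-low, and under DMSO 206 and 159. With at least 5 such cells, 8 samples under 5C and 5 under DMSO entered the Dazl-high class, and 6 and 2 the Dazl-low class. A 5C sample with 1 Dazl-low cell and a DMSO sample with 2 were not used in the latter. DMSO Dazl-high sums held 8 to 86 cells, down to 497579 UMIs. In DMSO replicates 1 and 2, 80 of 88 and 77 of 90 cells were Dazl-low, so few cells entered their Dazl-high sums. Between 200 and 800 CPM lay 67 of 724 5C cells and 24 of 365 DMSO cells. The cell names give days 12 to 16 for 5C and day 20 or 24 for DMSO, apart from 8 DMSO cells of day 0, so treatment and day cannot be told apart. Both DMSO Dazl-low samples were of day 20. Dazl-low cells had a median pluripotency sum of 2239 CPM under 5C and 3009 under DMSO, and of SSC markers, *Dazl* included, 238 and 56.9 CPM.

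Dazl-high cells under 5C had 13 of the 35 genes higher and 2 lower than under DMSO, beside 19.2% of all genes called (9.93% and 9.3%). The median log2 fold change was 0.40, against 0.01 over all genes. At a *Dazl* limit of 800 CPM 6 genes were called, and 8 with a fold minimum. The largest was that of *Phf19*, which had 309 counts of 45794482 UMIs under 5C and 1 of 17082864 under DMSO, a ratio of 115 with a 95% counting interval of 20.5 to 4567. Under 5C, 7 of the 8 samples held *Phf19* counts, at 2.74 to 9.67 CPM, and under DMSO 1 of 5 did. *Kdm6a* had 4.05, 2.67, 2.89, 3.09 and 2.09 CPM in the 5 DMSO samples and ranged from 14.9 to 32.9 with a median of 17 in the 8 5C samples. The groups lay apart, with a log2 fold change of 2.84 ± 0.34 (edgeR adjusted p = 2.5e-06).

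*Setd1b* and *Kdm6b* were also higher in Dazl-high cells under 5C. *Setd1b* had 10.1, 6.68, 7.17, 11.9 and 8.14 CPM under DMSO and ranged from 21.5 to 36.7 with a median of 25.2 under 5C, without overlap, with a log2 fold change of 1.58 ± 0.27 (edgeR adjusted p = 0.00017). *Kdm6b* had 58.8, 6.68, 50.6, 21.6 and 47 CPM under DMSO and ranged from 60.4 to 154 with a median of 109 under 5C, with 1.57 ± 0.31 (adjusted p = 0.000696). The *Kdm6b* values of DMSO scattered widely and the highest lay just under the lowest of 5C. In SSC1-4 of the STRT-seq assay, without added chemicals, *Phf19* had medians of 3.35 CPM in batch B1 and 3.56 in batch B2. Those of *Kdm6b* were 114 and 84.7, and both genes lay within the 5C values. *Kdm6a* (7.66 and 5.17) and *Setd1b* (16.5 and 16.4) lay between the DMSO and 5C values. The 2 assays were not tested against each other. The other genes higher were *Setd1a*, *Suz12*, *Jarid2*, *Setdb1*, *Setd2*, *Dot1l*, *Kdm1a*, *Kdm5a* and *Kdm3b*, by 0.58 to 1.35 on the log2 scale, and the 2 lower were *Mtf2* (-0.42 ± 0.12) and *Ehmt2* (-0.43 ± 0.13). The cell cycle sum ranged from 1792 to 2819 CPM in these 5C samples, with a median of 2408, and from 1055 to 2141 with a median of 1672 under DMSO. The sum of 4 Y-linked genes (*Kdm5d*, *Uty*, *Ddx3y* and *Eif2s3y*) ranged from 139 to 205 CPM under 5C and from 69.5 to 115 under DMSO, without overlap, and that of the meiotic markers had medians of 37.9 and 74 CPM with overlapping ranges. The part of these 3 sums was not tested.

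Dazl-low cells under 5C had 16 genes higher and 0 lower than the 2 DMSO samples, beside 17.1% of all genes called (8.96% and 8.18%). The median log2 fold change was 0.75, against 0.12 over all genes. *Setd1a* had 17 and 25.7 CPM under DMSO and ranged from 46.6 to 99.3 with a median of 62.8 under 5C, with a log2 fold change of 1.69 ± 0.31 (edgeR adjusted p = 0.000374). *Setd1b* had 23.5 and 20.3 CPM under DMSO and ranged from 39.5 to 97.4 with a median of 66.2 under 5C, with 1.6 ± 0.37 (adjusted p = 0.00309). Neither gene had overlapping samples.

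*Suz12* had 106 and 112 CPM in the DMSO Dazl-low samples and ranged from 250 to 404 with a median of 272 under 5C, again apart, with a log2 fold change of 1.48 ± 0.33 (edgeR adjusted p = 0.00231). *Kdm2a* had 17.5 and 25.3 CPM under DMSO and ranged from 24.3 to 84.2 with a median of 66.2 under 5C, where 1 sample lay between the 2 DMSO values, with 1.52 ± 0.33 (adjusted p = 0.00165). All H3K4 writers but *Kmt2d* were among the 16. Leaving out single samples gave 7 to 17 calls, with 7 without DMSO replicate 2, and at a *Dazl* limit of 800 CPM, which brought 4 DMSO samples into the class, 6 genes were called. The 2 Dazl-low groups also differed in marker genes. *Dazl*, which set the limit, ranged from 99.1 to 229 CPM under 5C and had 25.5 and 36.1 under DMSO, while *Ddx4*, a germ cell helicase not used for it, ranged from 28.5 to 53.6 and had 12.9 and 15. The pluripotency sum ranged from 1601 to 2671 CPM under 5C and had 2999 and 3018 under DMSO, and the Y-linked sum from 217 to 310 against 173 and 174, all without overlap. Their part was not tested.

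**Figure D3:**
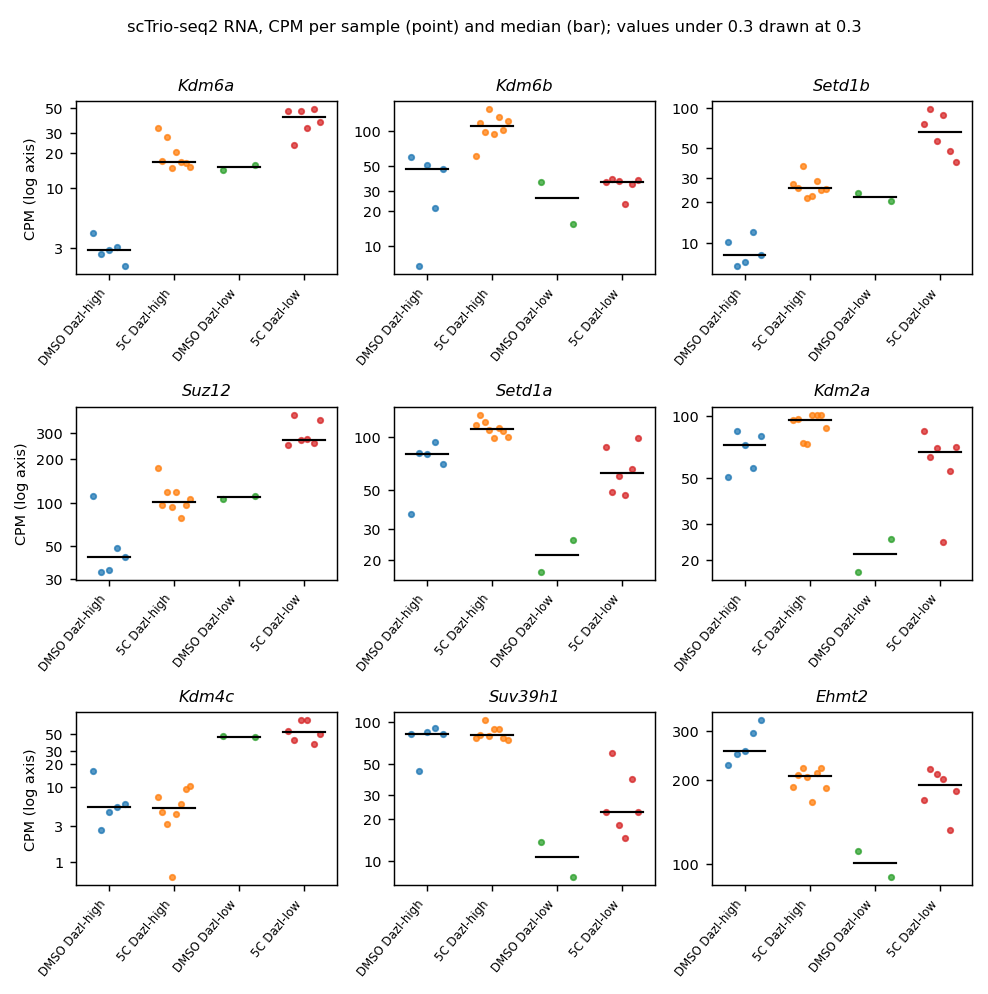
CPM (TMM scaled, log axis) of named genes in each scTrio-seq2 sample, split into Dazl-high and Dazl-low cells under DMSO and 5C, with 1 point per sample, a bar at the median and values under 0.3 drawn at 0.3. *Kdm6a* in Dazl-high cells lies at 2.09 to 4.05 under DMSO and at 14.9 to 32.9 under 5C.

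The difference between 5C and DMSO samples, which also differed in day, was itself different in Dazl-low and Dazl-high cells for 3 of the 35 genes, beside 6.49% of all genes (3.4% and 3.1%). *Ehmt2* had 227, 249, 253, 293 and 327 CPM in DMSO Dazl-high samples and 112 and 89.5 in DMSO Dazl-low samples, while the medians under 5C were 207 and 192. The difference of its 2 log2 fold changes was 1.31 (edgeR adjusted p = 0.00113), that of *Kmt2b* 1.29 (adjusted p = 0.0486, a call kept in 3 of the 13 fits that left out 1 sample) and that of *Phf19* -7.21 (adjusted p = 0.00304), a fitted value that rests on the single count in DMSO Dazl-high cells. *Phf19* had 7 and 3.38 CPM in the DMSO Dazl-low samples. With the limit at 800 CPM, 0 of the 3 were called.

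Within each treatment the loss of *Dazl* could be read against the class comparison of the other assay, which shares no sample with it. Under 5C, 11 of the 35 genes were higher and 10 lower in Dazl-low than in Dazl-high cells, beside 44.5% of all genes called (22.2% and 22.3%). All 6 samples with Dazl-low sums also gave Dazl-high sums, and this test did not pair them. *Kdm4c* ranged from 0.614 to 10.2 CPM in 5C Dazl-high samples, with a median of 5.21, and from 37.1 to 77 in Dazl-low samples, with a median of 52.8. The groups lay apart and the log2 fold change was 3.32 ± 0.38 (edgeR adjusted p = 7.99e-08). *Suz12* ranged from 78.9 to 174 CPM in Dazl-high and from 250 to 404 in Dazl-low samples, also apart, with 1.46 ± 0.20 (adjusted p = 1.12e-06). The cell cycle sum ranged from 1792 to 2819 CPM in 5C Dazl-high and from 3060 to 3694 in 5C Dazl-low samples. The Y-linked sum ranged from 139 to 205 and from 217 to 310 CPM, and neither sum overlapped. The part of these 2 sums was not tested.

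*Suv39h1* and *Kdm6b* fell with *Dazl* under 5C. *Suv39h1* ranged from 73.9 to 103 CPM in Dazl-high samples and from 14.6 to 59.5 in Dazl-low samples, without overlap, with a log2 fold change of -1.57 ± 0.24 (edgeR adjusted p = 7.64e-06). *Kdm6b* ranged from 60.4 to 154 CPM and from 23.3 to 37.9, without overlap, with -1.67 ± 0.29 (adjusted p = 2.97e-05). At a limit of 800 CPM in place of 400, 8 genes were called in all, among them *Kdm4c* (2.83, adjusted p = 0.00777) and *Suz12* (1.2, adjusted p = 0.0139), while *Suv39h1* was at -1.03 (adjusted p = 0.0558) and *Kdm6b* at -1.01 (adjusted p = 0.0514).

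Under DMSO, 8 genes were higher and 12 lower in Dazl-low cells, beside 40.6% of all genes (20.4% and 20.2%), with 2 Dazl-low samples. *Kdm4c* had 16.2, 2.67, 4.63, 5.3 and 5.82 CPM in Dazl-high samples and 47 and 46 in Dazl-low samples, with a log2 fold change of 2.96 ± 0.56 (edgeR adjusted p = 0.000132). *Suv39h1* had 81.1, 44.1, 83.7, 90.3 and 81.4 CPM and 13.8 and 7.67, with -2.85 ± 0.42 (adjusted p = 4.46e-06). *Kdm1b* had 73, 36.1, 58.6, 87.2 and 80.7 CPM and 9.5 and 12.4, with -2.62 ± 0.61 (adjusted p = 0.00104). In each of the 3 genes the Dazl-low samples lay outside the Dazl-high range. So did the cell cycle sum, with 3145 and 3388 CPM against 1055 to 2141, and the Y-linked sum, with 173 and 174 against 69.5 to 115. The part of these 2 sums was not tested. *Phf19* was higher in Dazl-low cells, with 43 counts of 12099826 UMIs against the single count in Dazl-high cells, a ratio of 60.7 with a counting interval of 10.3 to 2453. Compared within the 2 samples with at least 5 cells of both classes, 10 genes were called in all, with or without the sample as a block. At a *Dazl* limit of 800 CPM, 2 genes were called. Over 24 alternative fits the smallest log2 fold changes were 1.84 for *Kdm4c*, -1.34 for *Suv39h1* and -1.64 for *Kdm1b*, and each gene lost its call in 1 fit. *Phf19* kept its call in all 21 fits.

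Of the 17 genes called higher in RPG3, 15 had the same sign in 5C Dazl-low against Dazl-high cells (88.2%, against 91.2% of all genes called higher in RPG3), 11 were called higher there (64.7%) and 0 lower. Over all genes called higher in RPG3, 62.1% were called higher there. Of the 9 genes called lower in RPG3, 8 had the same sign (88.9%, against 91.3% of all such genes) and 7 were also called lower under 5C (77.8%, against 54.7% of all such genes). Under DMSO, 12 of the 17 had the same sign (70.6%, against 92.5% of all such genes) and 8 of the 9 (88.9%, against 94.6%). There, 7 of the 17 were called higher (41.2%, against 58.2%) and 6 of the 9 lower (66.7%, against 51.5%). *Ehmt2* was called in opposite directions, higher in RPG3 by 0.79 and lower in DMSO Dazl-low cells by -1.43 ± 0.21. The plot of the 2 assays, drawn for 5C, shows *Kdm4c* at the upper right and *Kdm1b* and *Suv39h1* at the lower left.

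**Figure D4:**
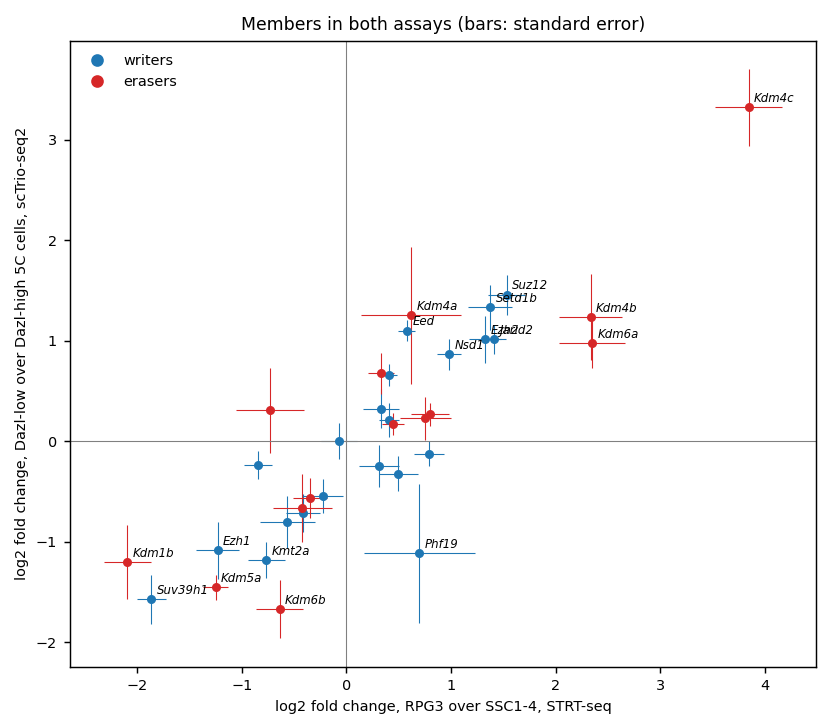
Log2 fold change of Dazl-low over Dazl-high 5C cells (scTrio-seq2, y axis) against that of RPG3 over SSC1-4 (STRT-seq, x axis), with 1 point per gene, blue for writers and PRC2 subunits and red for erasers, and bars for the standard error. *Kdm4c* lies at 3.84 on the x axis and 3.32 on the y axis.

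The established lines had 1 library each, so no test was possible, and intervals cover counting error only. *Phf19* had 0 counts in mESCs, against 21 at passage 1 and 7 at passage 15, and ratios to mESCs are given for the other genes. Between gPSC passage 1 and mESCs, 0 of these genes were at least 2-fold higher and 2 at least 2-fold lower, while 31.5% of all genes with at least 1 CPM differed by that much (13.7% higher and 17.8% lower). The 2 were *Kdm1b*, at 2.89 CPM (95% Poisson interval 2.01 to 4.02) against 12.2 (10.4 to 14.2), and *Phf8*, at 6.86 (5.46 to 8.5) against 15 (13 to 17.2). At passage 15, 15 of these genes were at least 2-fold higher than in mESCs and 0 lower, beside 39.2% of all genes past 2-fold (22.7% higher and 16.6% lower). They included all H3K4 writers but *Kmt2d*, with *Kmt2c* at 120 CPM (114 to 127) against 27.5 (24.8 to 30.5), and *Suz12* at 345 (334 to 356) against 87.9 (83 to 93.1).

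Of the 6 genes whose RPG3 and SSC1-4 ranges did not overlap, 4 lay on the RPG3 side of SSC1-4 in all 3 lines. The share of all genes that do so was not computed. *Suv39h1* had 18, 21.6 and 17 CPM in gPSC passage 1, passage 15 and mESCs, all below the SSC1-4 range of 60.7 to 161. *Kdm4c* had 42, 98.1 and 41.1 CPM, all above the SSC1-4 range of 0 to 29.8, and *Ezh2* had 403, 341 and 255, above its range of 47.3 to 207. *Kdm5a* had 93.8, 154 and 101 CPM, below its lowest SSC1-4 value of 215. *Jarid2*, at 104 CPM in mESCs, and *Kdm4b*, at 10.2 CPM in passage 1 and 5.88 in mESCs, lay inside the SSC1-4 range. *Phf19* had 1.73 CPM at passage 1, 0.669 at passage 15 and 0 counts in mESCs, which allows up to 0.274 CPM. Between passage 15 and passage 1, 11 genes were at least 2-fold higher and 1, *Phf19*, lower, beside 37.8% of all genes.

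**Figure D5:**
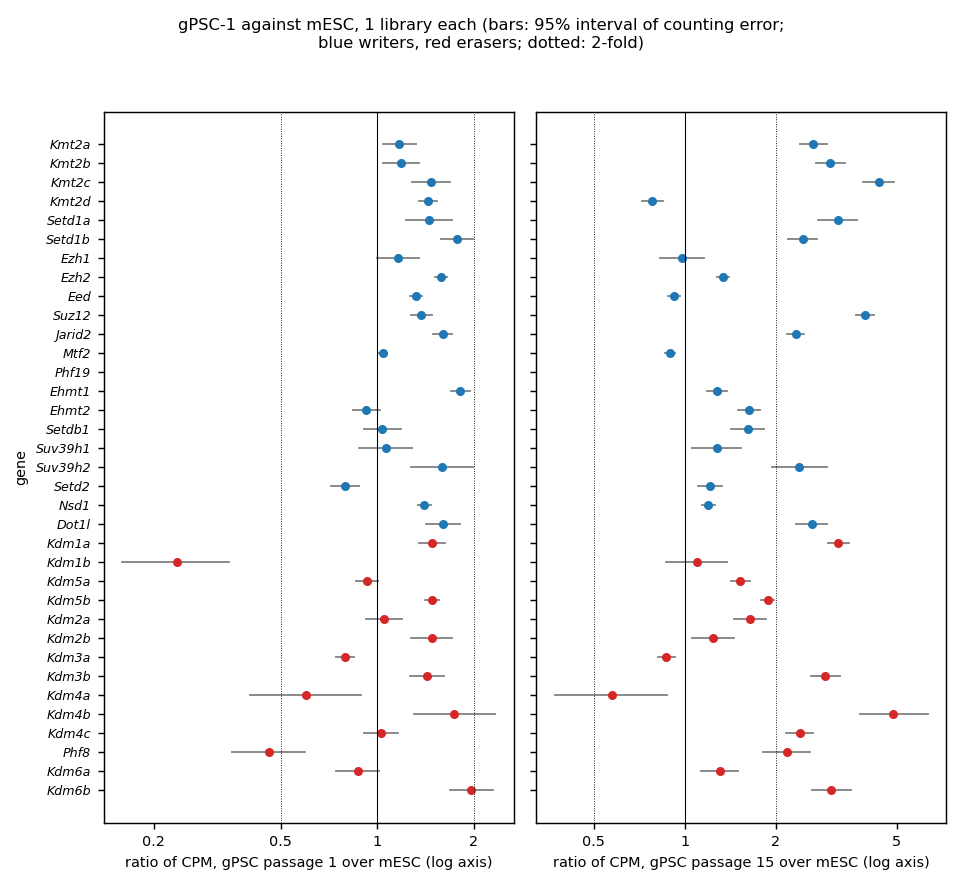
Ratio of CPM (log axis) between gPSC-1 passage 1 or passage 15 and mESCs for each gene of the list, with 95% counting intervals, 1 library per line, and *Phf19* left out because mESCs had 0 counts. Passage 1 lies between 0.24, for *Kdm1b*, and 1.97, for *Kdm6b*, and passage 15 lies at or above 2 for 15 genes, with *Kmt2c* at 4.36.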

How the data were processed

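Single-cell RNA counts of the original condition, of the 3 lines and of 5C and DMSO cells were used. The authors deposited clean UMI counts per gene and cell, made after UMI extraction by alignment to mm10 with STAR 2.7.2b and counting with featureCounts 2.0.0, and filtered cells by genes detected and mitochondrial share. No doublet caller was run, and no 2 cells had identical counts. Counts were summed per library and class (at least 5 cells). edgeR 4.0.16 (R 4.3.3) with TMM, filterByExpr and glmQLFTest was fitted once over 9 classes and once over 4 scTrio-seq2 groups, on the 15426 genes in both scTrio-seq2 tables, with Benjamini-Hochberg adjustment over all genes tested. The standard error is the absolute log2 fold change over the square root of F. Levels are CPM with TMM. The fit was tested on simulated data. Alternatives included DESeq2 1.42.0, other filters, batch, library blocks, other *Dazl* limits and leaving out libraries. The genes, lists and rules were chosen with earlier results of these data known. Per-library values are given for up to 8 called genes with the largest change in RPG3, up to 3 in each other RPG class, up to 2 in each other branch and up to 4 in each scTrio-seq2 comparison. Up to 3 genes are named from each pathway list, and further genes were named after their values were seen. Samples that share a replicate number in 5C and DMSO did not deviate together (correlations of -0.08 to 0.07), so the number was not taken as a pairing. Methylation files were not used here. The neural marker sum and 1 gene that the naming rule selects from the partner list are not reported here. Intervals cover counting error only.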

Additional observations from a re-analysis of the deposited data

Results flagged for a closer look

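In 31 groups of 4 to 10 samples, 10 had a highest or lowest sample far from the others, where chance alone gives about 1 in 20 for a single group, but groups that share samples are not independent. Of these, 4 were the RPG3 sum of day 12 replicate 2, which held 7 cells: *Jarid2* at 440 CPM, *Kdm1b* at 22.4, *Kdm6a* at 115 and *Suz12* at 289. In DMSO Dazl-high cells, *Kdm4c* was high in replicate 1, at 16.2 CPM, *Suv39h1* low in replicate 2, at 44.1, and *Phf19* above 0 in replicate 3 alone, at 0.116 from 1 count, as any single count among samples at 0 would be. In 5C Dazl-high cells, *Suz12* was high in replicate 1, at 174 CPM, and *Setd1b* in replicate 3, at 36.7. In 5C Dazl-low cells, *Kdm6b* was low in replicate 6, at 23.3 CPM.

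The difference between 5C and DMSO samples, which also differed in day, was not the same in Dazl-low and Dazl-high cells, by edgeR's interaction test, for *Ehmt2* (1.31 on the log2 scale), *Kmt2b* (1.29) and *Phf19* (-7.21). Only 2 DMSO samples held at least 5 Dazl-low cells.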

How the results depend on the processing

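Numbers below are counts of the 35 genes called. RPG2 and RPG3 against SSC1-4 (19 and 26) gave 8 and 14 over libraries with at least 5 cells of both classes without a block, and RPG3 gave 15 with the library as a replicate block and 17 in batch B2 alone. With the library as a block RPG2 gave 14. RPG1 (0) gave 2 by DESeq2's Wald test, 3 with at least 10 cells per sum and 2 with only its 2 classes fitted. The early-pluripotent class (1) gave 2 by DESeq2, without a filter or with 2 classes fitted, 5 with at least 10 cells, and 0 with a fold minimum, batch as a covariate, batch B2 alone, sums per batch and day, or libraries holding both classes with or without the block. The meiotic class (3) gave 6 with at least 10 cells and 0 in batch B2 alone, per batch and day, and with or without the block. The neural class (4) gave 1 with a fold minimum or per batch and day, 0 in batch B2 alone or with at least 10 cells, and 2 with or without the block. RPG2 against RPG1 (21) gave 4 in batch B2 alone and 10 per batch and day. RPG3 against RPG2 (4) gave 1 in batch B2 alone, 0 per batch and day and 2 with 2 classes fitted, and RPG4 against RPG3 (5) gave 3 with DESeq2 size factors. 5C against DMSO gave, in Dazl-high cells (15), 8 with a fold minimum and 9 with the replicate number as a block, against 13 in the same samples without it. Own numbers matched best for 2 of 5 pairs, so these samples share only a number. With the *Dazl* limit at 800 CPM, 5C against DMSO gave 6 in Dazl-high and 6 in Dazl-low cells (16), and Dazl-low against Dazl-high gave 8 under 5C (21) and 2 under DMSO (20). The latter gave 10 with the sample as a block and 10 without it. The interaction of treatment group and *Dazl* class (3) gave 10 by DESeq2, 0 at 800 CPM and 5 with at least 10 cells. *Phf19* in the neural class reversed to 0.78 per batch and day. The causes were not tested.

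Leaving out single libraries gave 0 to 1 in RPG1, 17 to 18 in RPG2, 23 to 27 in RPG3, 7 to 10 in RPG4 (7 without day 20 replicate 1), 0 to 1 in the fibroblast (1 without day 8 replicate 1) and early-pluripotent classes (0 without day 12 replicate 2 or day 14 replicate 3), and 3 to 6 in the neural class. It gave 16 to 21 for RPG2 against RPG1, 0 to 4 for RPG3 against RPG2 (0 without day 14 replicate 5) and 2 to 5 for RPG4 against RPG3 (2 without day 20 replicate 1). In scTrio-seq2 it gave 12 to 18 and 7 to 17 for 5C against DMSO in Dazl-high and Dazl-low cells, 20 to 21 and 16 to 21 for the loss of *Dazl* under 5C and DMSO, and 2 to 3 for the interaction. Of the genes called, 21 of 26 in RPG3, 15 of 19 in RPG2 and 3 of 14 in RPG4 stayed called each time, as did 12 of 15 and 5 of 16 for 5C against DMSO. No paired analysis was possible for RPG4 against SSC1-4, RPG2 against RPG1, RPG3 against RPG2 and 5C against DMSO in Dazl-low cells because they shared fewer than 2 libraries or numbers. Sums of few cells, down to 433094 UMIs, limit the precision of low genes.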
